A study of Mus musculus with 4 samples.

Results

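RNA levels of 32 genes of the hypoxia response and of lower glycolysis were compared between Skiv2l-deficient and control newborn mouse epidermis. The 32 genes were chosen by name from the 54752 gene identifiers of the deposited tables, with earlier results of these data known. The counts below therefore describe this choice of genes. They comprise 11 lower glycolysis genes, from glucose-6-phosphate isomerase to lactate dehydrogenase together with the pyruvate dehydrogenase kinase Pdk1, 19 other targets of the hypoxia-inducible factors (HIFs), and the HIF alpha subunit genes Hif1a and Epas1. All 32 passed the filter of an FPKM above 0.5 in at least 1 library, Car9 through the knockouts alone. At a limma adjusted p under 0.05, 8.99% of all tested genes were higher in the knockout epidermis and 25.4% were lower. Of the 32 genes, 16 were higher, Car9 included, and 0 were lower. The 7 glycolysis enzymes among them were above both controls in both knockout pups. Their FPKM in the second pup was 1.09 to 1.36 times that in the first, and over all 11 glycolysis genes 1.09 to 1.66 times. With 1 added to FPKM, the second knockout pup was over 2-fold above the first for 10 of the 19 targets and 0 glycolysis genes. This held for 0.382% of all tested genes.

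HIF-1alpha (Hif1a) and HIF-2alpha (Epas1) pair with ARNT and bind short DNA elements near genes that serve life at low oxygen. In the presence of oxygen the prolyl hydroxylases of the Egln family modify the HIF alpha proteins, VHL then marks them for degradation, and much of the control of this pathway is therefore at the protein level, which RNA does not report. Lower glycolysis turns sugar phosphates into pyruvate and lactate, and its enzyme genes are both housekeeping genes and HIF targets. The epidermis has no blood vessels of its own, receives oxygen by diffusion and relies strongly on glycolysis.

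The study sequenced total RNA of the epidermis of 4 C57BL/6 pups, taken at postnatal day 0, with 2 Skiv2l fl/fl K14-Cre pups and 2 pups of the Skiv2l ctl group. SKIV2L is the helicase of the SKI complex, which feeds RNA to the cytoplasmic RNA exosome, and K14-Cre removes the floxed gene in keratinocytes, where the keratin 14 promoter is active. The Skiv2l ctl group can hold pups that are Skiv2l fl/fl or Skiv2l fl/+ without Cre, or Skiv2l fl/+ with K14-Cre, so a control may carry Cre and 1 deleted allele, and which of these each control pup was is not given. Replicates were separate pups, and with 2 against 2 0.333 is the smallest two-sided p of an exact permutation test, so the tests used are those of limma, which takes its estimate of the spread partly from all genes.

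Skiv2l itself had FPKM values of 19.3 and 19.1 in the control pups and of 10.8 and 8.55 in the knockouts (log2 fold change -0.92 with a standard error of 0.12, adjusted p = 0.00368 by limma). FPKM counts fragments after the authors' scaling for library size and for how long the transcript is. The tables correspond to 5.843 to 6.274 aligned gigabases per library, and in the absence of read counts the values carry no counting interval. The median log2 fold change over the 13609 tested protein-coding genes was -0.20, and 1223 of them were higher and 3455 lower. With each library scaled to the same median, 1894 were higher and 1623 lower, and the share of called genes that were higher went from 26.1% to 53.9%. No member changed direction under any of the scaling alternatives.

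The second knockout library stood apart from the other 3 in several respects that the labels do not explain. It listed 16138 genes above an FPKM of 0.5, against 17384 to 17761 in the others. Of 15 intestinal epithelium genes, 11 were highest in it and 2 were listed at 0 in all libraries, and their summed FPKM was 26.9 against 7.68 to 10.6. Muc2 was at 11.1 FPKM against 0.265 to 0.524 in the other libraries, while Lgals4 (6.802 against 5.71 to 7.92) and Krt20 (0.270 against 0.210 to 0.584) were higher in a control. Of 11 immediate early and heat shock genes, 7 were highest in it, their summed FPKM being 910.3 against 582, 364 and 471 in the first control, the second control and the first knockout. Xist was at 83.7 and 59.3 FPKM in the first control and the second knockout and at or below 0.0218 in the other libraries, where 4 Y-linked genes summed to 39.8 and 43.5, so each genotype held 1 pup of each pattern. The genes of these checks were chosen after their values were seen, and the part of any of these differences in the results was not tested. The calls are therefore given with and without the second knockout library.

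Keratinocyte markers summed to between 24904 and 28713 FPKM in the 4 libraries, by far the highest of the marker lists. The sum held changes in both directions, with 3 of 10 markers higher and 2 lower. The basal keratin Krt14 went from 1736 and 1812 FPKM to 7381 and 7312, and the desmosomal cadherin Dsg3 and the basal integrin Itgb4 were 4.99 and 1.52 times the control mean in the knockouts. The basal markers Krt5, Trp63 and Col17a1 were not called, at 0.863, 0.945 and 0.954 times the control mean. Of the differentiation markers, Lor and Krt1 were 0.526 and 0.704 times the control mean. Krt10 and Ivl, at 0.742 and 0.830, were not called. Ivl was above both controls in the first knockout and below both in the second. The sums of other cell types were low, and 3 of them were lower in both knockouts. The part of these marker differences in the results was not tested. Of 12 skeletal muscle markers, 3 passed 0.5 FPKM and the list summed to 7.94 to 9.90. The 8 erythroid markers summed to 134 and 125 in the control pups against 62.4 and 80.9 in the knockouts, and the 8 leukocyte markers to 16.3 and 19.6 against 11.5 and 10.1. The 8 fibroblast markers summed to 70.3 and 78.3 against 29.3 and 32.6, of which Dcn made up most, and the other 7 to 13.3 and 15.6 against 12.4 and 11.2. The 5 melanocyte markers summed to 50.7 and 56.9 against 53.4 and 67.1, with Tyrp1 higher at 2.04 times the control mean (limma adjusted p = 0.0279). Endothelial markers summed to at most 1.34 FPKM, with Emcn listed at 0 in all libraries, and adipocyte markers to at most 0.0446. In such bulk samples, fewer cells of a type and less RNA per cell cannot be told apart.

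The HIFs bind elements that carry the letters ACGTG or GCGTG, and these were searched on both strands in the 250 bases before each RefSeq gene start (GRCm38.p6). Windows were at hand for 27 members. Of these, 24 (88.9%) held at least 1 match in any of their windows, against 59.98% of the 10534 tested genes with a window and 41.5% of all genes with one. Matches were found in 9 of 11 glycolysis genes and 14 of 15 hypoxia targets, and none in the windows of Gpi1, Tpi1 and Car12. Counted by window, 32 of 41 (78.0%) held a match, against 54.2% of the windows of tested genes. The members' windows had a median GC content of 64.0% and those of tested genes 59.6%, and the part of base composition in the difference was not tested. A match describes these letters in this window and is not a measured binding site. No window was at hand for Ndrg1, Bhlhe40, Epas1, Bnip3l and Stc1, so these were not searched.

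The windows of 3 glycolysis genes and of 2 oxygen-dependent hydroxylases are printed 5′ to 3′ on the gene's strand, with matches in capitals. Candidates were some glycolysis members and some hypoxia targets more than 2-fold higher in the second knockout pup. Those without a window off every annotated exon were dropped. Of each gene left, the printed window is the one off exons with the most matches, so the printed windows do not stand for the others. They lie at chr4:150236458-150236707 (Eno1, plus strand), chr7:46845554-46845803 (Ldha, plus), chrX:106186850-106187099 (Pgk1, plus), chr12:54203875-54204124 (Egln3, minus) and chr11:54100674-54100923 (P4ha2, plus), none of them over an exon of GENCODE M21. Those of Ldha and P4ha2 lie inside the span of the annotated gene, before an internal RefSeq start.
Eno1: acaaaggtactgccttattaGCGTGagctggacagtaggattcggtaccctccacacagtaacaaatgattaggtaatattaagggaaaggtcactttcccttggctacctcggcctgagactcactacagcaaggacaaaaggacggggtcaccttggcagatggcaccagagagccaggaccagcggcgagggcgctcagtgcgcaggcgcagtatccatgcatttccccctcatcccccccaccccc
Ldha: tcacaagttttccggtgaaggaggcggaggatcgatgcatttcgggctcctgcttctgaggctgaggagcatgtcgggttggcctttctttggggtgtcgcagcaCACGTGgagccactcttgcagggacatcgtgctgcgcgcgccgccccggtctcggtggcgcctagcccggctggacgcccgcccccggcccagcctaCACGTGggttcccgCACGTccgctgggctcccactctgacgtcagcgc
Pgk1: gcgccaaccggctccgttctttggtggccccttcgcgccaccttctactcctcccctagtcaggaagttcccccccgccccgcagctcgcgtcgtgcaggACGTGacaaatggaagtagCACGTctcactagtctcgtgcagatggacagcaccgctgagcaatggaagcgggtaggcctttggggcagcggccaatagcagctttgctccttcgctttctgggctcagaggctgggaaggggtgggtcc
Egln3: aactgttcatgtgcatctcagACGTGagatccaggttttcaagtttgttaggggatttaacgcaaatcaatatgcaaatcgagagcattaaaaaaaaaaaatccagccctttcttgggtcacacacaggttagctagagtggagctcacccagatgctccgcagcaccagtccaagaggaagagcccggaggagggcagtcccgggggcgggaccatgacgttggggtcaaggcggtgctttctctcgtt
P4ha2: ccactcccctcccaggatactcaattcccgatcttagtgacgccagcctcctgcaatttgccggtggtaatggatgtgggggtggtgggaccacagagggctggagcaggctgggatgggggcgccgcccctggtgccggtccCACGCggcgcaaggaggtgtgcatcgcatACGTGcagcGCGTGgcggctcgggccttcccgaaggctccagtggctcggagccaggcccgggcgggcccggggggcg
The Ldha window held the palindrome CACGTG at 2 places, each read on both strands and so counted as 2 overlapping matches, and a further match between them and the start, 5 matches of ACGTG in all. Pgk1 held 2 matches of ACGTG. Eno1 held 1 match of GCGTG, Egln3 1 of ACGTG, and P4ha2 3 matches, of which 2 were GCGTG.

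Of the 11 lower glycolysis genes, 7 were higher in the knockouts and none was lower. The median log2 fold change was 0.72 against -0.20 over all tested genes. The 7 genes were Aldoa, Gapdh, Pgk1, Pgam1, Eno1, Pkm and Ldha, which cover fructose bisphosphate cleavage and each later step from glyceraldehyde 3-phosphate to lactate. Summed over the 10 enzymes from Gpi1 to Ldha, the level was 1164 and 1087 FPKM in the control pups against 1934 and 2355 in the knockouts, 1.91 times the control mean. Both knockouts were above both controls for 9 of the 11 genes, against 18.2% of tested genes.

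**Figure D1:**
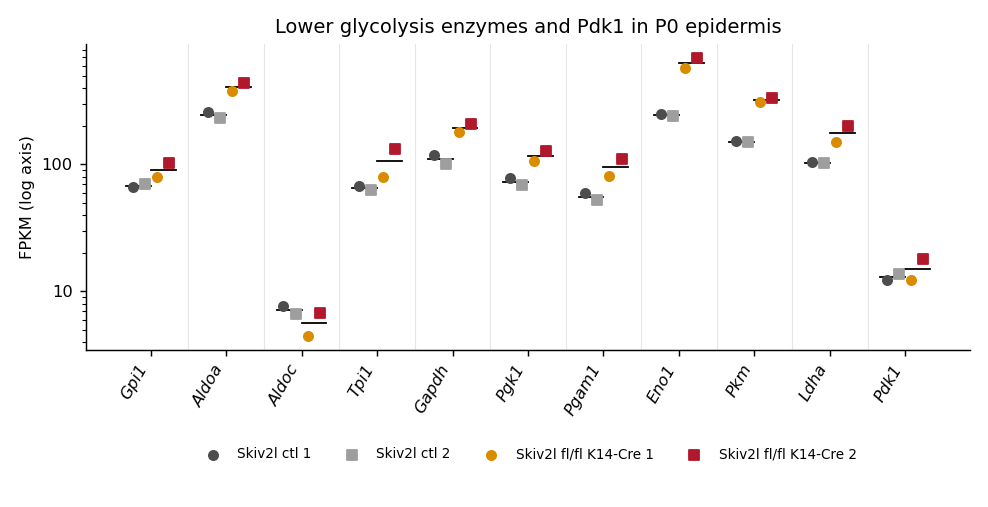
FPKM (log axis) of the 11 lower glycolysis genes in pathway order, 1 point per library, with lines at the group means. The knockout points lie above both control points for 9 genes, and for Aldoc and Pdk1 they do not. Eno1 reaches 572 and 689 FPKM against 248 and 241.

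Eno1 (ENSMUSG00000063524.13, chr4:150236721-150248879), the enolase of most tissues, was the most abundant of these enzymes in the knockouts on the genes' own rows. With the rows of copies that share sequence with each gene added, Gapdh was above Eno1 (949 and 1011 FPKM against 611 and 736). The FPKM of Eno1 on its own row was 248 and 241 in the control pups against 572 and 689 in the knockouts. The groups were far apart compared with the difference between pups, with a log2 fold change of 1.36 with a standard error of 0.11 (adjusted p = 0.000751 by limma). Pkm (ENSMUSG00000032294.17, chr9:59656368-59679375), the pyruvate kinase that makes pyruvate and ATP, went from 154 and 149 to 308 and 335 FPKM, a log2 fold change of 1.08 with a standard error of 0.085 (adjusted p = 0.000672 by limma). Eno1 and Pkm also showed the smallest differences between control pups among the 7 genes after Ldha.

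Aldoa, which splits fructose bisphosphate, was listed at 260.3 and 233 FPKM in the control pups against 375 and 441 in the knockouts (log2 fold change 0.72, limma adjusted p = 0.00586). Gapdh, the dehydrogenase often used as a reference gene, went from 119 and 101 to 178 and 209 (log2 fold change 0.81, limma adjusted p = 0.00484). Pgk1, the X-linked phosphoglycerate kinase that makes ATP, went from 77.4 and 68.3 to 105 and 127 (log2 fold change 0.66, limma adjusted p = 0.00945). In all 3 genes the lower knockout stood above the higher control, and the second knockout stood above the first.

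Pgam1, which moves the phosphate of phosphoglycerate, was at 59.2 and 52.4 FPKM in the control pups against 81.3 and 110.4 in the knockouts (log2 fold change 0.76, limma adjusted p = 0.0144). Ldha (ENSMUSG00000063229.15, chr7:46841475-46855627), which makes lactate and regenerates NAD+, was at 104 and 102 in the control pups against 151 and 202 in the knockouts (log2 fold change 0.75, limma adjusted p = 0.0108). The Ldha values of the control pups were nearly equal and those of the knockout pups further apart.

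Tpi1, the triose phosphate isomerase, and Gpi1, the glucose-6-phosphate isomerase, were above both controls in both knockouts without passing the test. Tpi1 was at 67.8 and 63.2 FPKM in the control pups against 79.3 and 132 in the knockouts (log2 fold change 0.64 with a standard error of 0.22, adjusted p = 0.0705 by limma). Gpi1 was at 66.5 and 69.6 in the control pups against 78.9 and 103 in the knockouts (log2 fold change 0.40, limma adjusted p = 0.0617). In both genes the second knockout lay well above the first, and both were called higher under median scaling.

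Aldoc, the aldolase of brain, and Pdk1, which restrains pyruvate entry into mitochondria, did not follow the others. Aldoc was at 7.63 and 6.62 FPKM in the control pups against 4.49 and 6.73 in the knockouts (log2 fold change -0.32, limma adjusted p = 0.212). Without the second knockout library its value was -0.56 and it was called lower. Pdk1 was at 12.2 and 13.6 in the control pups against 12.2 and 17.9 in the knockouts (log2 fold change 0.18, limma adjusted p = 0.440), with the first knockout below both controls and the second above both.

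The isoform composition differed between the genotypes as well. Ldha made up 84.2% and 84.4% of the summed FPKM of Ldha and Ldhb in the control pups against 94.1% and 96.2% in the knockouts. Ldhb, the heart-type subunit, fell from 19.5 and 18.9 FPKM to 9.51 and 7.93 (log2 fold change -1.06, limma adjusted p = 0.00164). Pdk1 was 38.7% and 40.1% of the Pdk1 to Pdk4 sum in the control pups against 52.7% and 56.1% in the knockouts, while Pdk3 fell from 15.4 and 16.4 FPKM to 8.86 and 10.9. In each of these shares the knockout pups lay outside the range of the controls.

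Among 12 listed isoforms and branch enzymes of the same steps, 8 passed the filter, and of these 0 were higher and 2 lower (Ldhb and Ldhd). Of all tested genes, 8.99% were higher and 25.4% lower. The median log2 fold change was -0.31, against -0.20 over all tested genes. The call of Ldhd was lost with median or quantile scaling, all gene types, a replicate block or any 1 library left out. Eno2, the neuronal enolase, was at 3.73 and 1.88 FPKM in the control pups against 1.31 and 1.04 in the knockouts (limma adjusted p = 0.0541), and Eno3, the muscle enolase, was between 1.48 and 2.23 in all libraries. Pgam2, the muscle phosphoglycerate mutase, was at 5.12 and 3.72 against 5.11 and 5.60. Bpgm, the mutase of red cells, was at 2.31 and 2.27 against 1.67 and 1.47. Pgk2, Pklr and Ldhc stayed under 0.05 FPKM in all libraries. Apart from Ldhb, the forms named here were all low next to the glycolysis members called higher.

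Several of these enzymes share sequence with processed copies elsewhere in the genome, and reads can be divided between them. Of the 75-base stretches of its transcripts, Pgk1 shares 52.8% with other genes, Pgam1 34.9%, Eno1 23.0%, Gapdh 22.6% and Pkm 17.8%. For Pkm these genes include AC160637.1, whose exons overlap those of Pkm on the same strand. The largest effect on levels was in Gapdh, with 56 copies whose rows summed to 428 and 399.8 FPKM in the control pups against 770.4 and 802 in the knockouts, more than the row of Gapdh itself. With the copies added, the log2 fold change of Gapdh was 0.90 (limma adjusted p = 0.00163). All 16 members called higher were also called with the copies added, and none of the 32 changed direction.

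**Figure D2:**
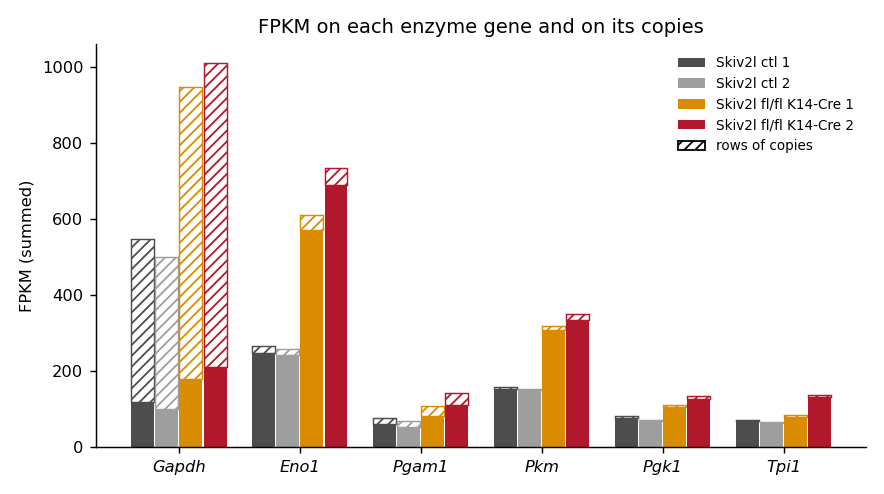
FPKM on the row of each of 6 enzyme genes (filled bars) and on the rows of genes that share at least 10% of their 75-base stretches with it (hatched, stacked on top), 1 bar per library. The copies of Gapdh hold 78.3% to 81.2% of the summed FPKM, and those of Eno1 6.39% to 6.97%. For Gapdh and Eno1 both parts are larger in the knockouts.

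Of the 19 other hypoxia targets, 8 were higher in the knockouts and 0 were lower, and the median log2 fold change was 0.81. All 19 had a positive value. The 8 were Stc2, Car9, Bnip3l, Ak4, Egln1, Egln3, Ndrg1 and Bhlhe40. Summed over all 19 genes, the level was 243 and 261 FPKM in the controls, 364 in the first knockout and 768 in the second, so most of the summed difference came from 1 pup.

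**Figure D3:**
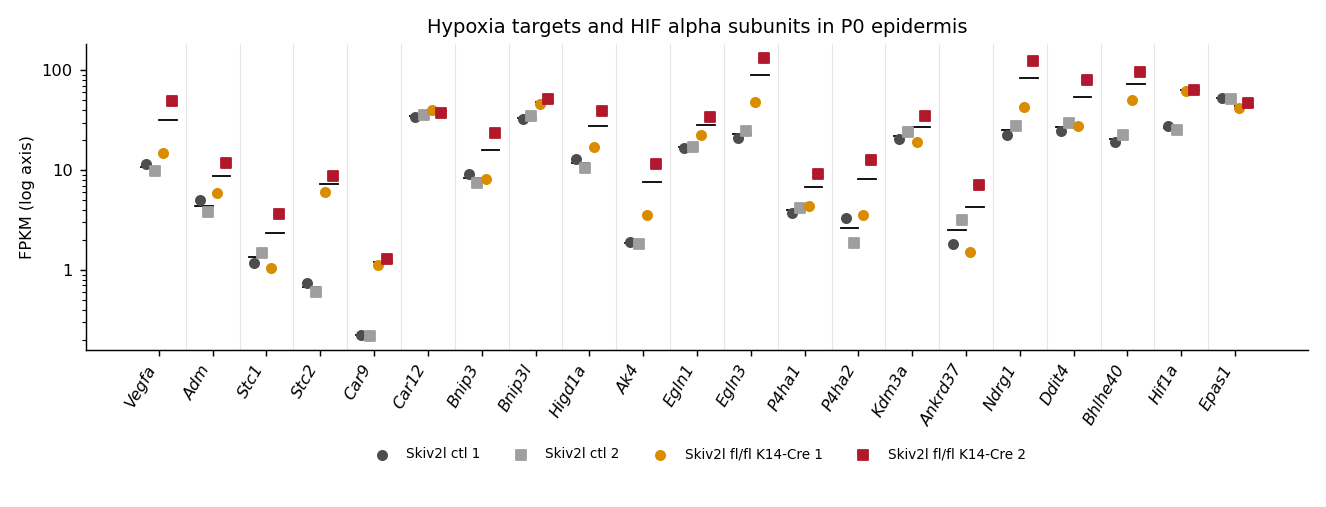
FPKM (log axis) of the 19 hypoxia targets and of Hif1a and Epas1, 1 point per library, with lines at the group means. For Vegfa, Ak4, Egln3, Ndrg1 and Ddit4 the second knockout stands far above the first. Stc2, Car9 and Hif1a show the knockout pups close together and above the controls.

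Among secreted and pH-regulating targets, Stc2 (ENSMUSG00000020303.2, chr11:31357307-31370074), the secreted glycoprotein stanniocalcin, had the largest fold change of all members. It was listed at 0.742 and 0.601 FPKM in the control pups against 6.01 and 8.69 in the knockouts, 10.9 times the control mean (log2 fold change 2.30 with a standard error of 0.18, adjusted p = 0.000659 by limma). Car9, the membrane carbonic anhydrase that is a common marker of hypoxia, was at 0.223 and 0.220 in the control pups against 1.13 and 1.30 in the knockouts, 5.48 times the control mean. At these low levels Car9 passed the filter on FPKM through the knockouts alone. Its log2 fold change was 0.86, since adding 1 to FPKM shrinks the change of low genes (limma adjusted p = 0.00725). For both genes the knockout pups were close to each other compared with the distance to the controls.

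Car12, another membrane carbonic anhydrase and far more abundant in this tissue, was nearly level at 34.2 and 35.8 FPKM in the control pups against 39.7 and 37.8 in the knockouts (log2 fold change 0.14, limma adjusted p = 0.217). It was the only member in which the second knockout was not above the first.

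Vegfa (ENSMUSG00000023951.17, chr17:46016993-46032369), the growth factor of blood vessels, was at 11.5 and 9.89 FPKM in the controls, 15.0 in the first knockout and 48.9 in the second. Its log2 fold change of 1.28 had a standard error of 0.48 and did not pass the test (limma adjusted p = 0.0844), and without the second knockout it was 0.46 (adjusted p = 0.0549). Adm, the vasodilator peptide adrenomedullin, was at 4.97 and 3.84 in the control pups against 5.94 and 11.7 in the knockouts (adjusted p = 0.0711). Stc1, the paralog of Stc2, was above both controls in the second knockout and below both in the first, at 1.18 and 1.49 against 1.04 and 3.64. Without the second knockout the log2 fold change of Stc1 was -0.19.

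Of the mitochondrial and energy targets, Bnip3l, a receptor for the removal of mitochondria, was at 32.2 and 35.1 FPKM in the control pups against 45.9 and 51.5 in the knockouts (log2 fold change 0.52, limma adjusted p = 0.0107). Its paralog Bnip3 was at 9.15 and 7.45 in the controls, 8.07 in the first knockout and 23.7 in the second (log2 fold change 0.69 with a standard error of 0.43, adjusted p = 0.244 by limma). The paralogs thus differed in their pattern over pups, since Bnip3l was above both controls in both knockouts and Bnip3 in the second only.

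Ak4, a mitochondrial adenylate kinase, went from 1.91 and 1.80 FPKM to 3.57 and 11.6 (log2 fold change 1.41 with a standard error of 0.43, adjusted p = 0.0492 by limma). Higd1a, a small inner membrane protein of the respiratory chain, was at 13.1 and 10.4 in the control pups against 17.0 and 39.0 in the knockouts (log2 fold change 1.08, limma adjusted p = 0.0568). Both were above the controls in both pups, and in both the second knockout was more than 2-fold above the first.

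The oxygen-dependent enzymes include the HIF prolyl hydroxylases, which are themselves induced by HIF in a feedback loop. Egln3 (ENSMUSG00000035105.5, chr12:54178981-54203860) was at 21.2 and 24.4 FPKM in the controls, 47.9 in the first knockout and 133 in the second (log2 fold change 1.77 with a standard error of 0.43, adjusted p = 0.0240 by limma). Egln1, the main oxygen sensor of most cells, was at 16.6 and 17.2 in the control pups against 22.7 and 33.7 in the knockouts (log2 fold change 0.68, limma adjusted p = 0.0308). Egln2, the paralog that hypoxia is not known to induce, was at 20.2 and 18.6 against 16.6 and 17.2, so that Egln3 made up 36.5% and 40.5% of the Egln1 to Egln3 sum in the control pups against 54.9% and 72.4% in the knockouts.

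P4ha1 and P4ha2, subunits of the collagen prolyl hydroxylase, were at 3.75 and 4.14 against 4.39 and 9.24 FPKM and at 3.35 and 1.87 against 3.54 and 12.8. Neither passed the test (limma adjusted p = 0.155 and 0.118), and in P4ha2 the first knockout was only just above the higher control. Kdm3a, a histone H3 lysine demethylase, was at 20.4 and 23.9 in the controls, 19 in the first knockout and 35.2 in the second (adjusted p = 0.540), and without the second knockout its log2 fold change was -0.21.

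Among stress and transcription targets, Bhlhe40, a transcriptional repressor that also acts in the clock, was at 18.998 and 22.3 FPKM in the control pups against 50.6 and 95.2 in the knockouts (log2 fold change 1.71 with a standard error of 0.28, adjusted p = 0.00666 by limma). Ndrg1, a stress-induced gene of differentiating epithelium, went from 22.3 and 27.9 to 43.0 and 123 (log2 fold change 1.51 with a standard error of 0.44, adjusted p = 0.0437 by limma). Both genes were above both controls already in the first knockout.

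Ddit4, an inhibitor of mTORC1 that hypoxia, glucocorticoids and energy stress induce, lay between the controls in the first knockout and at 2.91 times their mean in the second. Ankrd37, a small ankyrin repeat protein, was at 1.81 and 3.19 FPKM in the controls, 1.53 in the first knockout and 7.04 in the second (limma adjusted p = 0.574). It had the largest ratio between the knockout pups of all members, 4.61, and without the second knockout its log2 fold change was -0.44. Its exons overlap those of Ufsp2 and Lrp2bp on the opposite strand, and whether counting used strand is not given.

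The HIF alpha genes differed in direction. Hif1a (ENSMUSG00000021109.13, chr12:73901375-73947530) was at 27.5 and 25.3 FPKM in the control pups against 62.2 and 64.2 in the knockouts, 2.39 times the control mean (log2 fold change 1.23 with a standard error of 0.085, adjusted p = 0.00043 by limma). The knockout pups differed by a ratio of 1.03 in Hif1a, closer to 1 than for any other member. Epas1 (ENSMUSG00000024140.10, chr17:86753700-86833410) was at 52.9 and 52.2 in the control pups against 41.9 and 46.6 in the knockouts (log2 fold change -0.24, limma adjusted p = 0.0768), below both controls in both pups. It was called lower with TPM in place of FPKM and without the second knockout library. Hif1a made up 34.2% and 32.7% of the summed FPKM of both genes in the control pups against 59.8% and 57.9% in the knockouts, so Epas1 RNA was the more abundant in controls and Hif1a RNA in knockouts.

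The knockout pups differed from each other in an uneven way across the members. The second knockout was above the first for 31 of the 32 members, against 42.8% of tested genes. On the log2(FPKM + 1) scale the median difference was 1.15 over the 19 hypoxia targets, 0.38 over the 11 glycolysis genes and -0.04 over all tested genes. On this scale, the second knockout was more than 2-fold above the first for 10 hypoxia targets and 0 glycolysis genes, against 52 of 13609 tested genes (0.382%). The 10 were Vegfa, Stc1, Bnip3, Higd1a, Ak4, Egln3, P4ha2, Ankrd37, Ndrg1 and Ddit4. On FPKM itself, P4ha1 was more than 2-fold higher as well, at a ratio of 2.11. With 1 pup against 1 pup there is no test of these differences.

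**Figure D4:**
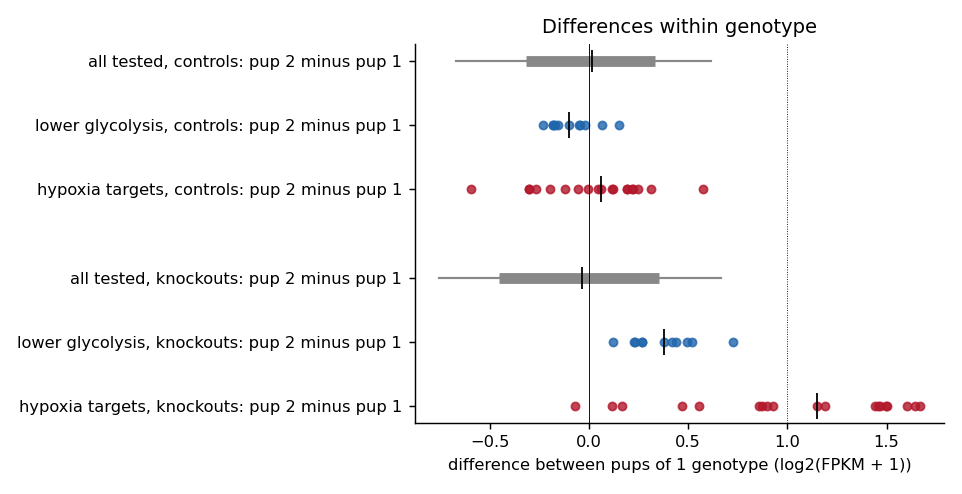
Difference between the pups of 1 genotype on the log2(FPKM + 1) scale, for controls (top) and knockouts (bottom). Points are members, black ticks medians, and grey bars span the 5th to 95th (thick) and 1st to 99th (thin) percentiles of the 13609 tested genes, with the dotted line at 2-fold. The hypoxia targets of the knockouts have a median of 1.15 and those of the controls 0.06.

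The controls showed no such split, with a median difference of 0.06 over the hypoxia targets and -0.10 over the glycolysis genes. The second knockout was above both controls for all 19 hypoxia targets and the first for 14, against 23.8% and 25.1% of tested genes. For the glycolysis genes these counts were 10 and 9 of 11. Below both controls were 6 members in the first knockout (62.7% of tested genes), 1 in the second (65.3%) and 1, Epas1, in both (55.3%). Against the control mean, the median log2 difference of the hypoxia targets was 0.41 in the first knockout and 1.41 in the second, and that of the glycolysis genes 0.54 and 0.93. The first knockout thus had higher glycolysis values than hypoxia target values by median, and the second the reverse.

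**Figure D5:**
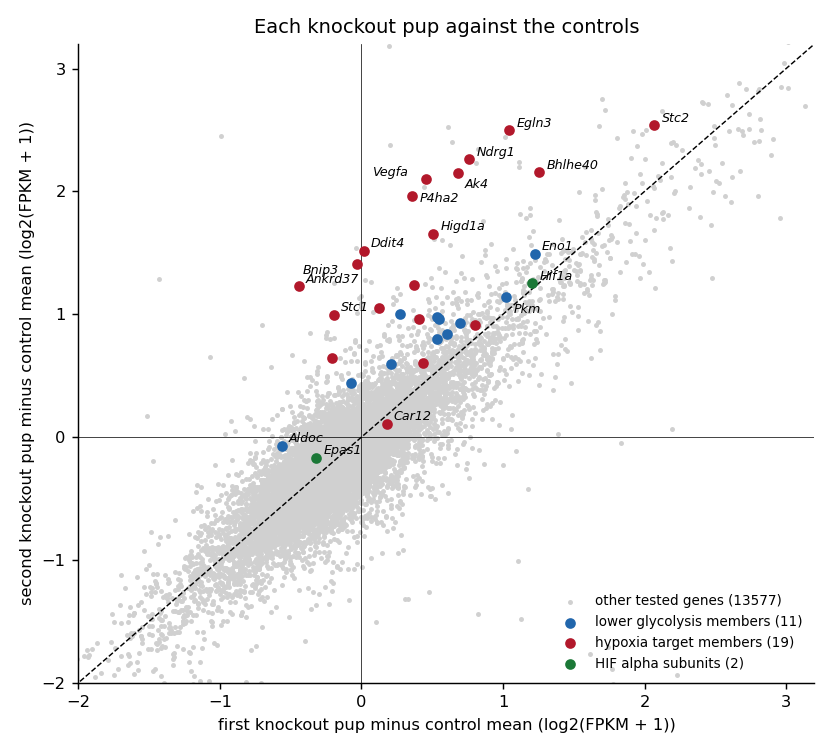
Difference from the control mean in the first (x axis) and the second (y axis) knockout pup, both as log2(FPKM + 1), for all tested genes (grey) and the members (coloured), with the diagonal dashed. A total of 101 tested genes lie outside the axes. Hif1a and Pkm lie near the diagonal, the other glycolysis genes lie up to 0.73 (Tpi1) above it, and Ankrd37 lies 1.67 above it.

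Without the second knockout library, with the lone remaining knockout assumed to vary like the other libraries, the same 16 members were higher (8.27% of all tested genes were) and Aldoc and Epas1 were lower (18.4% were). Without the first, 29 members were higher, against 8.42% of tested genes. Hif1a, Eno1, Pkm, Stc2 and Car9 were called under every alternative that was run. Of these, Car9 passed the filter through the knockouts alone. The stricter filter, an FPKM above 1 in at least 2 libraries, was passed by both Car9 and Stc2 only through the knockouts. The other 11 called members lost their call when no filter on low values was used or when the second control was left out.

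Glucose uptake and upper glycolysis genes, from a list of 14 of which 11 passed the filter, included 5 that were higher and 1 that was lower. Of all tested genes, 8.99% were higher and 25.4% lower. The median log2 fold change of the list was 0.56. The glucose transporter Slc2a1 was at 35.9 and 37.4 FPKM in the controls, 74.9 in the first knockout and 204 in the second (log2 fold change 1.73, limma adjusted p = 0.0240). The muscle-type phosphofructokinase Pfkm fell from 5.56 and 5.35 to 2.55 and 2.30 (log2 fold change -0.92, limma adjusted p = 0.00294), and its share of the Pfkl, Pfkm and Pfkp sum went from 15.2% and 15.0% to 4.62% and 2.45%. Slc2a1, the hexokinase Hk2 and Pfkfb3, the enzyme that makes the activator of phosphofructokinase, were also among the 52 genes more than 2-fold higher in the second knockout than in the first, at ratios of 2.72, 2.96 and 8.21. Pfkfb3 was chosen for mention after its values were seen and did not pass the test (limma adjusted p = 0.114).

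Of 14 genes of pyruvate and lactate handling, 1 was higher and 3 were lower. These counts stand beside 8.99% higher and 25.4% lower of all tested genes, and the call of Mpc1 was lost under median scaling and quantile normalization. Slc16a3, the lactate exporter MCT4, rose from 1.53 and 1.31 FPKM to 6.97 and 14.3 (log2 fold change 2.19 with a standard error of 0.29, adjusted p = 0.00352 by limma). Slc16a1, the related transporter MCT1, was at 8.80 and 9.56 against 8.24 and 11.9, so the share of Slc16a3 in their sum went from 14.8% and 12.1% to 45.8% and 54.7%. The mitochondrial pyruvate carrier subunits Mpc1 and Mpc2 fell, from 11.3 and 12.9 to 8.38 and 7.71 and from 9.61 and 10.05 to 6.00 and 6.38 (log2 fold changes -0.53 and -0.59), and Pdk3 was the third gene that was lower.

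Of 12 HIF regulators, 1 was higher and 3 were lower, at a median log2 fold change of -0.17, near that of all genes. Hif3a, whose products include inhibitors of HIF, rose from 0.650 and 0.549 FPKM to 1.36 and 2.16 (limma adjusted p = 0.0219). Hif1an, the asparagine hydroxylase that lowers HIF activity, fell from 15.9 and 16.6 to 12.2 and 11.3 (log2 fold change -0.44, limma adjusted p = 0.0167). The VHL complex genes Eloc and Cul2 fell by 0.47 and 0.49 on the log2 scale. All 3 calls of lower genes were lost under median scaling and under quantile normalization, and those of Hif3a and Cul2 without the second knockout library. The counts of 1 and 3 of 12 stand beside 8.99% and 25.4% of all tested genes.

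A wider list of 35 other hypoxia-inducible genes held changes in both directions. Of the 27 that passed the filter, 8 were higher and 5 were lower, beside 8.99% higher and 25.4% lower of all tested genes. The median log2 fold change was 0.12. Among the called genes, the largest rises were those of Slc16a3, Slc2a1 and Hk2. The lists of the previous paragraphs also hold these genes, so some of the 8 were counted there too. The largest falls were those of Angptl4, a secreted inhibitor of lipoprotein lipase, from 4.62 and 6.32 FPKM to 0.837 and 0.166 (log2 fold change -2.13, limma adjusted p = 0.0023), of the peptide Edn1, from 4.76 and 5.85 to 2.95 and 1.55, and of Tmem45a, a membrane protein of keratinising cells, from 69.8 and 83.4 to 45.0 and 44.4. Pfkfb3, which was not called, had a larger log2 fold change (1.92) than Slc2a1 and Hk2. Over all these other lists, 8 of the 11 genes called higher and 12 of the 14 called lower were also called without the second knockout library, the exceptions being Fam162a, Gys1, Hif3a, Cul2 and Ldhd.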

How the data were processed

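RNA of the epidermis of 4 pups was measured in 1 library each, and 1 table per library was deposited. The authors processed the reads with the Astrocyte RNASeq workflow of their institution on GRCm38, while the aligner, its version and whether counting used strand are not given in the sources used here. The deposited FPKM had been scaled by the authors for library size and for how long the transcript is. The deposited TPM sums to 1 total in each library, and the deposited coverage signal is a mean read depth per base. Values were already scaled for depth, so a few very abundant genes can shift all others. The ratio of coverage to FPKM gave the depth, and 2 pups per genotype limit the precision.

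FPKM was summed per gene identifier, and a symbol with several identifiers took the one with the higher mean. Of 54752 identifiers, 54723 matched GENCODE M21, and 21921 were protein-coding. The 13609 with FPKM above 0.5 in at least 1 library entered a two-sided test with limma 3.58.1 (R 4.3.3) after a log2(FPKM + 1) transformation. The functions were lmFit and eBayes, the latter with its trend option, and p-values were adjusted by Benjamini-Hochberg across the tested genes. The fit was tested on simulated data. Figures were drawn with matplotlib 3.10.9. The members, the gene lists and the tests were chosen with earlier results of these data known. All members are named, and of each other list at most the 3 called genes with the largest rise and the 3 with the largest fall, and forms of the same enzyme step. Shared sequence was counted over 75-base stretches of GENCODE M21 transcripts. Promoter windows are from RefSeq. Alternatives were another pseudocount, other filters, all gene types, TPM, median and quantile scaling, a replicate block, no trend, identifiers summed per symbol, copies added, and leaving out each library. Replicate numbers name different pups, and the labels give no pairing.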

Additional observations from a re-analysis of the deposited data

Results flagged for a closer look

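For 8 members, the rows of copies held signal that was higher in the knockouts than in the controls. Copies here are genes that share at least 10% of their sequence stretches with the member, so not all are near-identical. No comparison between genotypes used these rows on their own. Their mean summed FPKM was 786 in the knockouts against 414 in the controls for Gapdh, 43.2 against 18.0 for Eno1, 29.1 against 16.0 for Pgam1, 12.7 against 4.76 for Pkm, 5.87 against 3.81 for Pgk1, 4.94 against 3.29 for Tpi1, 2.80 against 1.52 for Bnip3l and 1.46 against 0.763 for Higd1a. For each of these genes the copies and the gene itself differed in the same direction. How many of the reads on the copies came from the gene was not tested.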

How the results depend on the processing

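Of the 16 members called higher, 16 were also called with a pseudocount of 0.1, the stricter filter, TPM, median and quantile scaling, identifiers summed per symbol and, as an alternative chosen after seeing the data, copies added. With all gene types or no trend, 14 were called, without Ak4 and Ndrg1. With no filter 5 members, 2 glycolysis genes and 2 hypoxia targets were higher, and over all genes 475 were higher and 927 lower of 21921 tested. Median scaling gave 1894 higher and 1623 lower genes, and quantile normalization 1917 lower. Of the genes of the other lists, 11 were higher and 14 lower. Without a filter these counts were 0 and 4, with all gene types or no trend 7 were higher, and with median or quantile scaling 8 or 9 were lower. Epas1 was called lower with TPM (log2 fold change -0.29, limma adjusted p = 0.041), the 1 member then lower. The causes were not tested.

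Leaving out 1 library at a time gave 5 to 29 members higher and 0 to 2 lower, 2 to 10 glycolysis genes higher and 0 to 1 lower, 2 to 18 hypoxia targets higher, 497 to 1146 genes higher and 805 to 3135 lower, and in the other lists 0 to 14 higher and 3 to 15 lower. Members called higher numbered 7 without the first control, 5 without the second control, 29 without the first knockout and 16 without the second. Of the members not called in the main fit, 5 changed sign without the second knockout, and their values were highest without the first. Their log2 fold changes ran from -0.076 to 0.44 (Pdk1), -0.19 to 0.99 (Stc1), -0.031 to 1.41 (Bnip3), -0.21 to 0.65 (Kdm3a) and -0.44 to 1.23 (Ankrd37), and that of Epas1 from -0.32 (limma adjusted p = 0.0482) to -0.17.

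With the replicate number as a block, 23 members were called higher, 13 of them hypoxia targets, and the 7 gained were Adm, Ddit4, Gpi1, Higd1a, P4ha1, Tpi1 and Vegfa. The labels give same-numbered pups only a number in common. The correlation of their deviations was -0.08, which cannot show whether they share a litter or a batch, since each genotype gives only 1 difference. Depth could not be turned into counting error without counts, and pups of 1 genotype number 2.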

Other observations

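Of the 52 genes more than 2-fold higher in the second knockout pup than in the first, 10 were members (19.2%) and 3 were in the other pathway lists. Others among the 52 were the intestinal genes Muc2, Tff3 and Clca1, at 11.1, 1.99 and 2.16 FPKM in that library, the early response genes Fos and Dusp1, at 96.3 and 122 against 30.7 and 35.4 in the first knockout, and the heat shock genes Hspa1a and Hsph1, at 103 and 12.5 against 43.9 and 5.49. Fos and Dusp1 were also higher in the first control, at 103 and 44.4, than in the second, at 24.6 and 11.1. In the opposite direction, 42 genes were more than 2-fold higher in the first knockout. These genes were picked after their values were seen, and no test was made of 1 pup against 1 pup.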
